A study of Mus musculus with 38 samples.

Results

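The mitochondrial ribosomal protein genes of the mouse are described here in microglia of the brain. They were taken by symbol: every protein-coding gene of the count table whose name is Mrpl or Mrps followed by a number. This gave 77 genes of 53801, and all 77 had at least 1 count. A test needs enough counts, and 74 of the 77 passed the low-count filter of edgeR, as did 11189 genes in all.

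Polyadenylated RNA was sequenced from viable CD11b+ cells sorted from dissociated brain, in 38 libraries. The mice were C57BL/6J, 3 months old, and all 5 groups carried the same alleles: hemizygous huTrem2 BACtg, an artificial chromosome with human TREM2 from which parts of the neighbouring TREML1 and TREML2 were deleted, and homozygous hTfR KI, a mouse transferrin receptor with a human part. TREM2 is a lipid-sensing receptor of microglia, and the antibody transport vehicle (ATV) binds the human part of the transferrin receptor so that an antibody passes from blood into brain. Each mouse received 1 dose of DNL919 (10 mg/kg), an antibody that activates human TREM2 and is taken here as the study's ATV:TREM2, of ATV:DNP02 (10 mg/kg), an isotype control on the same vehicle, or of vehicle solution.

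DNL919 microglia were collected at day 1, day 4 and day 7, with 8 libraries each. ATV:DNP02 (8 libraries) and Vehicle (6 libraries) were collected at day 1, so no control of the later days was analysed here. The labels give 4 takedown batches, and every group has libraries in each of them. Batches 1 and 2 were female and batches 3 and 4 male, and sex and batch pair cannot be told apart. The transgene is human TREM2 on top of the mouse gene, and its own transcript is not among the genes counted. By the study's figure legends the libraries of a group are from separate mice.

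Libraries of DNL919 day 1 were deeper, with 2.91 to 6.42 M counts (M for mega), against 1.65 to 3.48 M for ATV:DNP02 and 1.73 to 3.15 M for Vehicle. Noncoding transcripts took 2.30% to 5.23% of their counts, against 4.71% to 8.68% for ATV:DNP02 and 5.52% to 9.70% for Vehicle. All 13 microglia markers were detected in every group, and they summed to 30793 to 45662 CPM in DNL919 day 1 and 29626 to 50147 CPM in ATV:DNP02, although 6 of the 13 were called lower in DNL919 day 1. Astrocyte markers, all 10 of 10 detected in both groups, summed to 134 to 301 CPM in DNL919 day 1 and 204 to 340 CPM in ATV:DNP02, with 1 called lower. Monocyte markers (6 of 6 detected in both groups) summed to 40.3 to 317 CPM in DNL919 day 1 and 3.53 to 259 CPM in ATV:DNP02, with 1 called higher. Those of border-associated macrophages (8 of 8) summed to 7.62 to 478 CPM in DNL919 day 1 and 101 to 1080 CPM in ATV:DNP02, with 2 called lower. Those of oligodendrocytes (9 of 9 detected in DNL919 day 1, with Ugt8a at 0 in ATV:DNP02), neurons (9 of 9) and endothelium (7 of 8, with Cldn5 at 0 in DNL919 day 1 and Cdh5 in ATV:DNP02) stayed at or below 170, 23.6 and 30.02 CPM in DNL919 day 1, against 276, 67.6 and 36.5 CPM in ATV:DNP02, each list with 1 called lower. Lymphocyte markers, with Ms4a1 at 0 in both groups, reached at most 52.7 CPM in DNL919 day 1 and 12.4 CPM in ATV:DNP02, with 0 called. The part of these cells in the results was not tested. Neutrophil markers stood out in DNL919 day 7 replicate 7 at 45.7 kCPM (k for kilo) and in DNL919 day 4 replicate 6 at 6.97 kCPM, against at most 0.583 kCPM in every other library.

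Mitochondria keep a ribosome of their own, the mitoribosome, which makes the few proteins that mitochondrial DNA encodes, all of them parts of the respiratory chain or of ATP synthase. Its ribosomal RNAs come from mitochondrial DNA, but its proteins are encoded in the nucleus, made in the cytosol and imported. Some of them descend from bacterial ribosomal proteins and others were added in the mitochondrial lineage. Of the 77 genes, 50 encode proteins of the large subunit, which joins amino acids (31 with a bacterial homologue and 19 specific to mitochondria), and 26 encode proteins of the small subunit, which reads the messenger RNA (17 and 9). Mrps18a and Mrps30 carry small-subunit names but sit in the large subunit. Mrps36 is a part of the α-ketoglutarate dehydrogenase complex rather than of the ribosome.

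Housekeeping genes of this kind often share short promoter motifs, and the sequence before the start was looked up in RefSeq promoters of build GRCm38.p6, where 68 of the 77 genes had an entry. In the 250 bases before the start, on both strands, the core motif of the ETS factor family (CCGGAAG) was in 16 of 68 members (23.5%) and in 9.62% of 15149 protein-coding promoters. The NRF1 core (GCATGCGC) was in 8 members (11.8%, against 3.23% of all promoters), and the YY1 core (AAGATGGC) in 4 (5.88%, against 1.54%). The E-box CACGTG was in 7.35% of members and 6.96% of all promoters, the GC box GGGCGG in 48.5% and 45.9%, and TATAAA in 5.88% and 11.8%. The motifs were searched separately, so matches of different motifs may share bases, and each match describes the letters only.

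The 150 bases before the RefSeq start are shown for 4 members with an ETS core whose window does not reach into the gene as annotated in the count table. Capitals mark the ETS core or its reverse complement. The first 3 genes were called higher on day 1, and Mrpl43 was the tested member with the smallest day 1 difference. They lie at chr13:99344636-99344785 (plus strand), chr14:54426759-54426908 (plus), chr9:98601680-98601829 (minus) and chr19:45006443-45006592 (minus).
Mrps27: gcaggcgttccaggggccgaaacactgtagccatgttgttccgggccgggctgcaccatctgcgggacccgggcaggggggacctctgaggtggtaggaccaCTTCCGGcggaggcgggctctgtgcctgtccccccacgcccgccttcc
Mrpl52: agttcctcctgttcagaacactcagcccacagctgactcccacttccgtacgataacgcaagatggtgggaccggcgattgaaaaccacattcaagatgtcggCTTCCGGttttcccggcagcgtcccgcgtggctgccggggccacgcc
Mrps22: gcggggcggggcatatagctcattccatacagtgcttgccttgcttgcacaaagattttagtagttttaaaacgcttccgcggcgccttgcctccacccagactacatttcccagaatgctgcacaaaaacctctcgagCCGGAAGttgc
Mrpl43: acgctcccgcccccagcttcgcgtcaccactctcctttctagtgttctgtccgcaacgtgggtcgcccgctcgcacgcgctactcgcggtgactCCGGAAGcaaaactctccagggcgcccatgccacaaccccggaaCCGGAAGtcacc

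The first question was whether these genes were expressed at another level 1 day after DNL919 than after the isotype control. Summed over the 77 genes, they held 4.39 kCPM at the lowest, 7.57 at the median and 8.98 at the highest in DNL919 day 1 libraries, against 3.13, 3.99 and 4.29 kCPM in ATV:DNP02 libraries. CPM are counts scaled to library size, here after library sizes were scaled by the trimmed mean of M values (TMM). The 2 groups did not overlap in this sum, nor did DNL919 day 1 and Vehicle, whose libraries held 3.29, 3.95 and 4.25 kCPM. As means, the genes took 0.675% of all counts in DNL919 day 1 and 0.403% in ATV:DNP02. In bulk RNA, fewer cells of a type and less RNA per cell cannot be told apart, and each value is a share of the RNA sequenced.

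**Figure D1:**
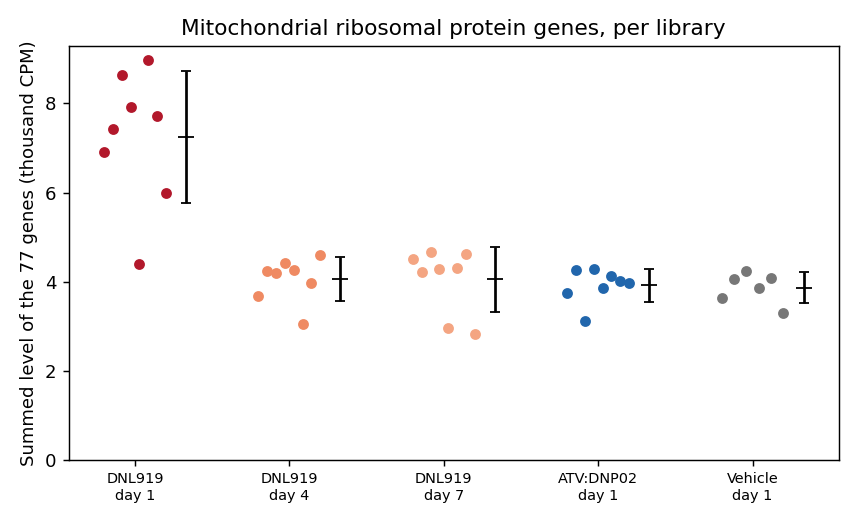
Summed level of the 77 mitochondrial ribosomal protein genes per library, in kCPM, with 1 point per library and the mean with its SD as a bar beside each group. The DNL919 day 1 libraries sit between 4.39 and 8.98 kCPM, and all ATV:DNP02 and Vehicle libraries below 4.30 kCPM.

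Within DNL919 day 1 the libraries were not alike. Replicate 5, a male of batch 3, held 4.39 kCPM, and replicate 8, a male of batch 4, 5.99 kCPM. Of the 74 tested members, 46 had their lowest DNL919 day 1 value in replicate 5 and 23 in replicate 8. Replicate 5 had 6.24 M counts and the lowest noncoding share of the group, 2.30%, while replicate 8 had the fewest counts, 2.91 M, and the highest noncoding share, 5.23%. Replicates 3 and 6 held the highest value for 18 and 20 members.

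Gene by gene, 59 of the 74 tested members were called higher in DNL919 day 1 than in ATV:DNP02 (limma-voom with group and batch, Benjamini-Hochberg adjusted p under 0.05 over all 11189 genes), and 0 were called lower. Of all genes tested, 20.8% were called higher. The median log2 fold change of the members was 0.88, a fold of 1.84, with quartiles of 0.59 and 1.10 and a range of 0.06 to 1.80, against a median of 0.01 over all genes. The estimate was above 0 for 74 of 74. Members of the large subunit were called in 41 of 49 tested, with a median of 0.93, and members of the small subunit in 18 of 25, with a median of 0.70. Members with a bacterial homologue were called in 40 of 47 and mitochondria-specific ones in 19 of 27. Whether these classes differ was not tested. A member was called in 15 of 25, 21 of 24 and 23 of 25 cases in the lower, middle and upper tertile of mean CPM. Shares of all genes at matching levels are not given here.

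**Figure D2:**
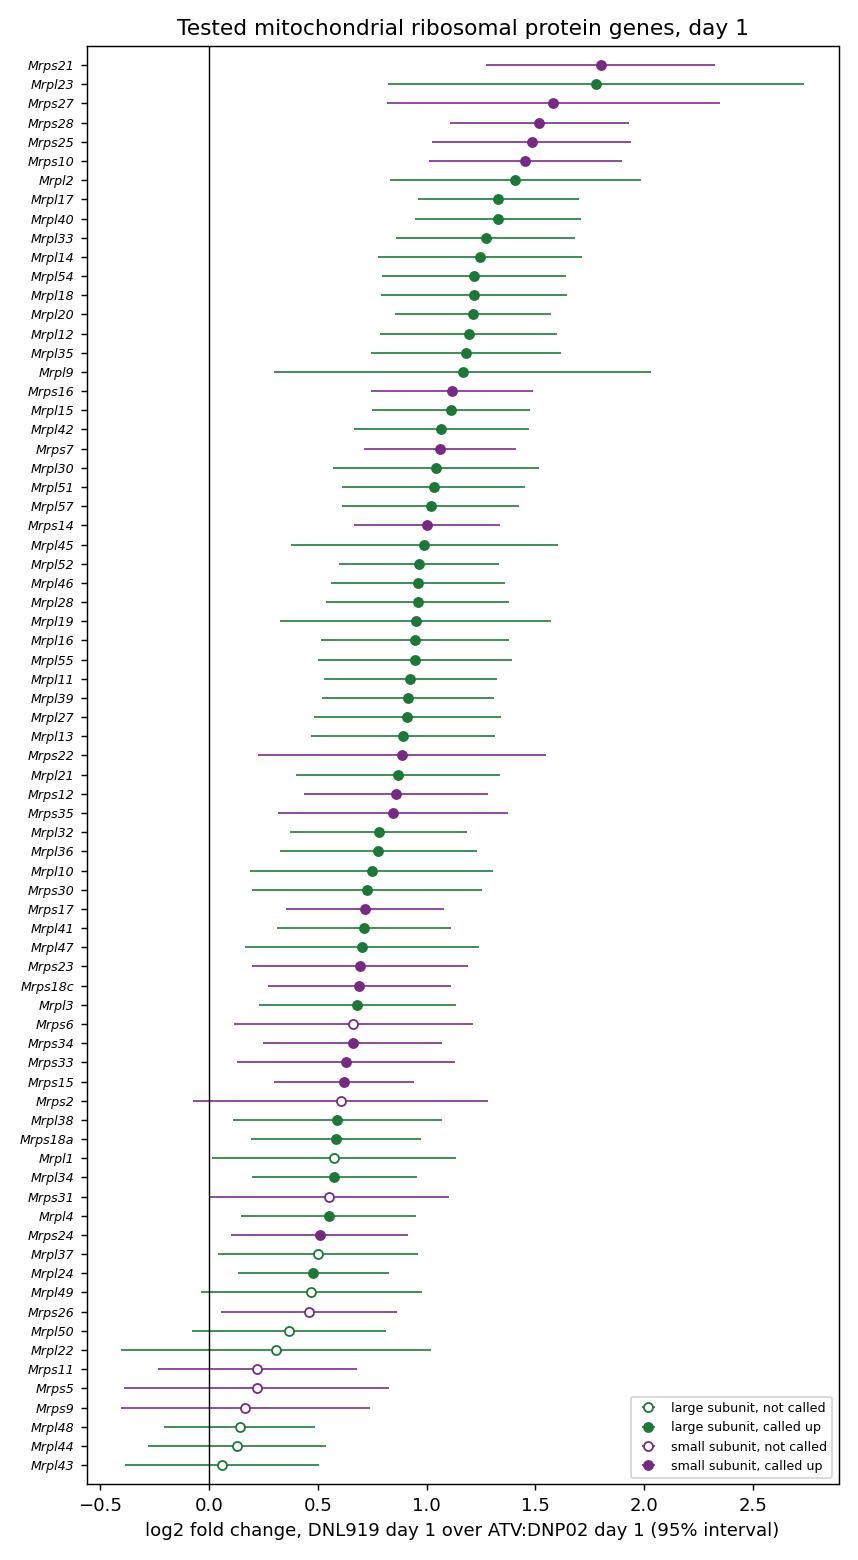
log2 fold change of each tested member in DNL919 day 1 over ATV:DNP02 day 1, in order of size, with its 95% interval from limma-voom, green for the large and purple for the small subunit, and filled where the member was called. All 74 estimates lie above 0, and the 59 called members reach from 0.48 to 1.80.

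The rise was present in each of the 4 batches. The median difference of the 74 members between the 2 DNL919 day 1 and the 2 ATV:DNP02 libraries of a batch was 0.82, 1.23, 0.71 and 0.74 on the log2 scale in batches 1 to 4, with 68, 72, 68 and 69 members above 0. Over all genes the same medians were 0.00, 0.01, 0.10 and 0.10. The noncoding share differed in each batch too: it averaged 2.59%, 3.27%, 2.98% and 4.50% in DNL919 day 1, against 5.03%, 7.71%, 7.79% and 7.47% in ATV:DNP02. With this share as a covariate 26 members were called and their median was 0.61, when the calls over all genes went to 1228 against 2329. In males alone, with 4 libraries a group, 12 members and 5.59% of all genes were called higher, and in females alone 48 members and 17.1% of all genes.

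Small-subunit proteins held 4 of the 5 members with the largest folds among the better expressed ones, those averaging at least 20 CPM over all libraries. Mrps21, a homologue of a bacterial small-subunit protein (chr3:95862634-95871519), measured 24.3 CPM at the lowest, 51.4 at the median and 68.7 at the highest in DNL919 day 1, against 5.30, 14.8 and 23.05 CPM in ATV:DNP02. Every DNL919 day 1 library was above every ATV:DNP02 library, and the log2 fold change was 1.80 (SE 0.26, limma-voom adjusted p = 3.67e-07). Mrps28 (chr3:8802146-8923918) measured 68.7, 172 and 193 CPM in DNL919 day 1, against 38.2, 51.4 and 64.7 CPM in ATV:DNP02 (log2 fold change 1.52, SE 0.20, adjusted p = 7.56e-08). Its groups were also apart, with the lowest DNL919 day 1 library close above the highest ATV:DNP02 library.

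Mrps25, a protein specific to the mitochondrial small subunit, measured 54.4, 73.6 and 107 CPM in DNL919 day 1 against 13.1, 27.9 and 39.5 CPM in ATV:DNP02 (log2 fold change 1.48, SE 0.23, adjusted p = 9.83e-07). Mrps10, with a bacterial homologue, measured 50.1, 65.7 and 87.0 CPM against 14.5, 23.4 and 39.6 CPM (log2 fold change 1.45, SE 0.22, adjusted p = 8.65e-07). Neither gene's groups overlapped. Mrps25 shares 4770 bases of its span with Nr2c2 on the other strand, and the library kit did not mark strand, so reads there cannot be told apart.

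Large-subunit proteins made up the rest of that list. Mrpl2, whose bacterial relative lies near the catalytic centre, measured 26.8, 38.8 and 46.2 CPM in DNL919 day 1 against 5.89, 11.1 and 31.4 CPM in ATV:DNP02 (log2 fold change 1.41, SE 0.29, adjusted p = 1.11e-04), with overlap between the groups. Mrpl17 measured 138, 229 and 277 CPM against 71.9, 87.4 and 107 CPM (log2 fold change 1.33, SE 0.18, adjusted p = 1.33e-07), and Mrpl40, specific to mitochondria, 64.4, 103 and 131 CPM against 29.2, 39.7 and 57.6 CPM (log2 fold change 1.33, SE 0.19, adjusted p = 2.51e-07). Both were without overlap. Mrpl33, Mrpl14 and Mrpl54 followed at 1.27, 1.25 and 1.22 on the log2 scale (SE 0.20, 0.23 and 0.21), each with overlapping groups. In Mrpl33 the lowest DNL919 day 1 library had 115 CPM, below the highest ATV:DNP02 library at 160 CPM, while the medians were 314 and 120 CPM.

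**Figure D3:**
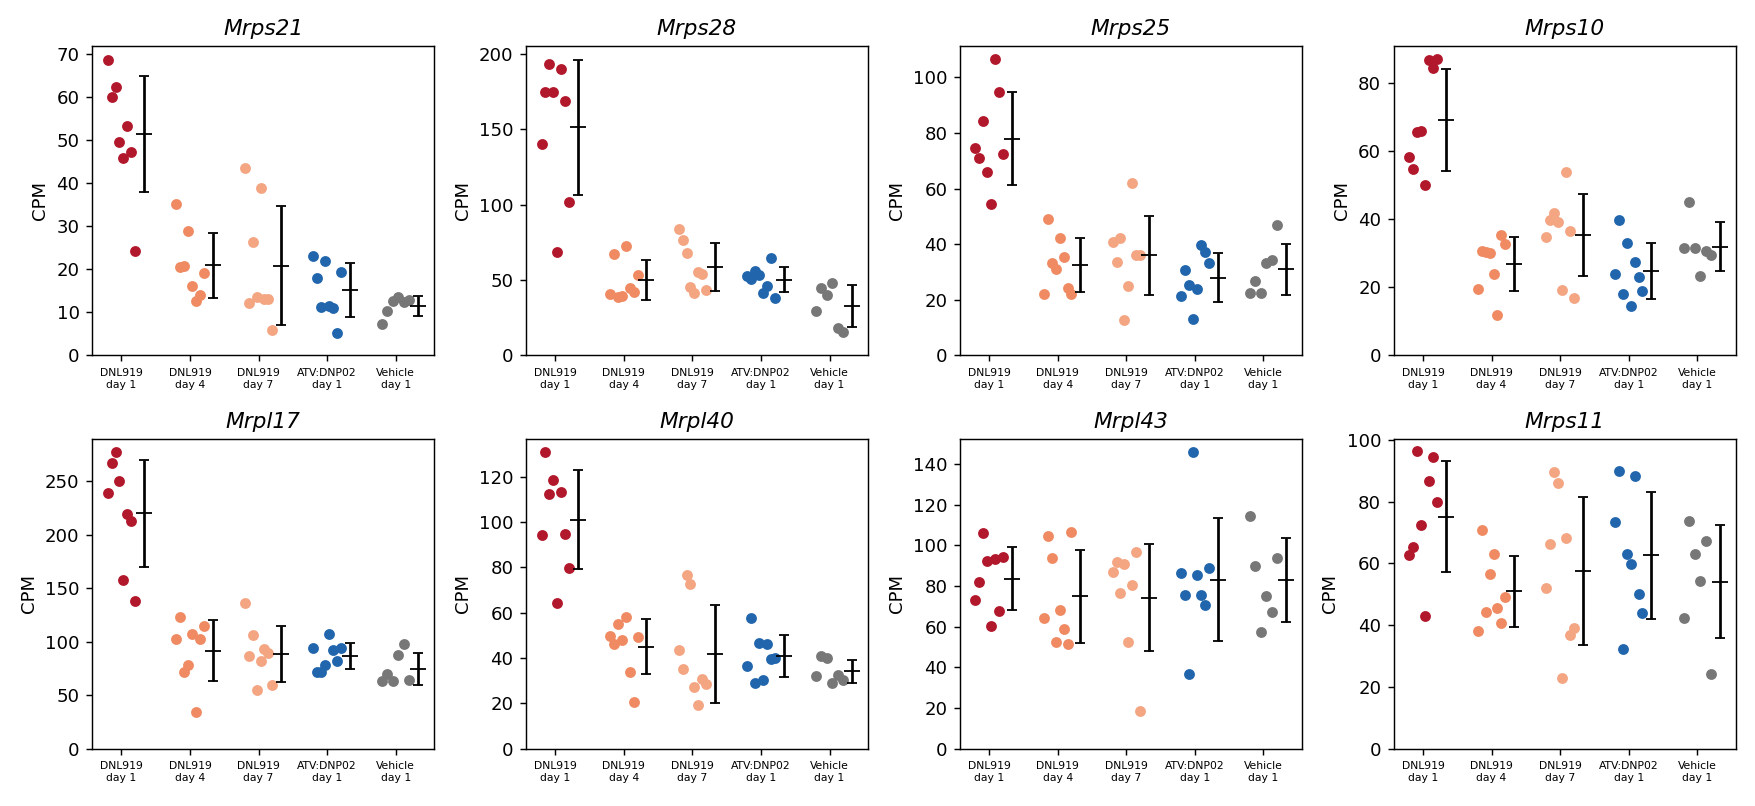
CPM per library of 8 members in the 5 groups, with 1 point per library and the mean with its SD as a bar. Mrps21, Mrps28, Mrps25, Mrps10, Mrpl17 and Mrpl40 have every DNL919 day 1 library above every ATV:DNP02 library, and Mrpl43 and Mrps11 overlap throughout.

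In all, 11 of the 74 members had every DNL919 day 1 library above every ATV:DNP02 library, where 5.54% of all tested genes did. They were Mrps7, Mrps10, Mrps21, Mrps25 and Mrps28 of the small subunit and Mrpl11, Mrpl12, Mrpl17, Mrpl27, Mrpl35 and Mrpl40 of the large one. Mrpl12, whose bacterial relative forms the stalk that recruits translation factors, measured 88.8, 128 and 159 CPM in DNL919 day 1 against 32.96, 55.9 and 72.9 CPM in ATV:DNP02 (log2 fold change 1.19, SE 0.20, adjusted p = 6.39e-06). Mrps12, whose bacterial relative helps to keep decoding accurate, measured 54.4, 92.3 and 98.0 CPM against 31.5, 48.7 and 64.7 CPM (log2 fold change 0.86, SE 0.21, adjusted p = 0.00101). The Mrps12 groups overlapped.

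The 3 paralogues Mrps18a, Mrps18b and Mrps18c descend from the same bacterial small-subunit protein. Mrps18c, of the small subunit, measured 98.8, 262 and 433 CPM in DNL919 day 1 against 113, 152 and 205 CPM in ATV:DNP02 (log2 fold change 0.69, SE 0.21, adjusted p = 0.00772). Mrps18a, of the large subunit, measured 54.4, 84.5 and 118 CPM against 47.0, 51.0 and 67.3 CPM (log2 fold change 0.58, SE 0.19, adjusted p = 0.0155). Both pairs of groups overlapped. Mrps18b had only 33 counts in all of DNL919 day 1 and 8 in ATV:DNP02 and was not tested. Mrps30, a large-subunit protein specific to mitochondria, measured 20.3, 40.2 and 60.0 CPM against 6.79, 26.7 and 47.1 CPM (log2 fold change 0.73, SE 0.26, adjusted p = 0.0258), and this call was kept in 3 of 10 alternatives. It was lost without DNL919 day 1 replicate 3 (0.65) or 7 (0.64) and without ATV:DNP02 replicate 2 (0.63) or 3 (0.45), and that of Mrps18a without DNL919 day 1 replicate 3 (0.48).

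Mrps27, which binds RNA in the small subunit, and Mrpl23, a large-subunit protein whose bacterial relative lies by the exit of the new chain, had large folds at low levels and are given here after their values were seen. Mrps27 measured 13.4, 24.9 and 40.9 CPM in DNL919 day 1 against 3.33, 7.31 and 15.5 CPM in ATV:DNP02 (log2 fold change 1.58, SE 0.38, adjusted p = 8.70e-04). Mrpl23 measured 1.81, 16.6 and 31.4 CPM against 1.77, 3.89 and 10.1 CPM (log2 fold change 1.78, SE 0.47, adjusted p = 0.00259). A processed pseudogene, Mrpl23-ps1, drew far more counts than Mrpl23 itself, 171 ± 78.8 CPM in DNL919 day 1 and 160 ± 41.8 CPM in ATV:DNP02 (SD, n = 8 each, log2 fold change -0.07, adjusted p = 0.872 by limma-voom), and how reads were divided between the 2 copies is not known. The other promoters shown belong to Mrpl52 (log2 fold change 0.97, adjusted p = 3.69e-05), Mrps22 (0.89, adjusted p = 0.0301) and Mrpl43, below.

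Of the members tested, 15 were not called. The 5 of them with the highest mean level were Mrpl43, Mrpl48, Mrps11, Mrpl50 and Mrps5. Mrpl43, a mitochondria-specific protein of the large subunit (chr19:45005014-45006442), measured 60.1, 87.1 and 106 CPM in DNL919 day 1 against 36.8, 80.6 and 146 CPM in ATV:DNP02. The groups lay on top of each other, with a log2 fold change of 0.06 (95% interval -0.39 to 0.51, adjusted p = 0.858), and its sign turned in 5 of the 10 alternatives. Mrpl48 had 0.14 (-0.21 to 0.49, adjusted p = 0.563) and Mrpl50 0.37 (-0.08 to 0.81, adjusted p = 0.201), both mitochondria-specific as well. Mrps11 and Mrps5 of the small subunit each had 0.22 (-0.24 to 0.68, adjusted p = 0.478, and -0.39 to 0.83, adjusted p = 0.612). All 5 intervals end below 0.88, the median of the members. Mrps6 missed the threshold narrowly, at 0.66 with an adjusted p of 0.0522.

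Mrps11 lies head to head with Mrpl46 on chromosome 7, and the spans overlap by 413 bases on opposite strands. Whether this overlap affects the values of either gene was not tested. Mrpl46 was called, with 50.1, 70.4 and 81.0 CPM in DNL919 day 1 against 20.5, 37.97 and 54.7 CPM in ATV:DNP02 (log2 fold change 0.96, adjusted p = 1.41e-04), where Mrps11 measured 43.0, 76.2 and 96.6 CPM against 32.4, 61.5 and 90.0 CPM. In all, 40 of the 77 members overlap the span of another gene, 25 of them that of a protein-coding gene, and in unstranded libraries such reads cannot be assigned by strand.

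The 3 members below the filter were Mrpl53, Mrps18b and Mrps36. Mrpl53 had 1 count in all 38 libraries, in DNL919 day 7 replicate 5. Mrps36, the dehydrogenase component, had 137 counts over DNL919 day 1, with 6 to 41 in each library, against 8 counts over ATV:DNP02, with 0 to 4. In CPM it measured 2.18, 3.91 and 6.12 in DNL919 day 1 against 0, 0.457 and 1.05 in ATV:DNP02, so the groups did not overlap. Without the filter its log2 fold change was 2.00 (SE 0.59, adjusted p = 0.00792), which for a gene with such low counts depends on the prior count.

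Set against vehicle solution instead, the members were higher on day 1 again. In DNL919 day 1 against Vehicle 50 of 74 were called higher and 0 lower, with 19.0% of all genes called higher, and the median log2 fold change was 0.86 (range -0.38 to 2.23, all genes 0.03). Only Mrps5 (-0.38) and Mrpl43 (-0.04) were below 0. Both comparisons use the same DNL919 day 1 libraries. Called against both controls were 47 members, and 12 against neither: Mrpl1, Mrpl22, Mrpl37, Mrpl43, Mrpl44, Mrpl48, Mrpl49, Mrpl50, Mrps5, Mrps9, Mrps11 and Mrps31. Such joint counts are not given here for all genes. With the noncoding share as a covariate 21 members and 8.34% of all genes were called higher, with a median of 0.58 over the members, and in males alone 11 members and 4.3%.

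The lowest adjusted p against Vehicle belonged to Mrps28, at 68.7, 172 and 193 CPM in DNL919 day 1 against 15.3, 34.9 and 48.2 CPM in Vehicle (log2 fold change 2.15, SE 0.26, adjusted p = 1.16e-08). Mrpl17 at 1.52 (adjusted p = 2.04e-07), Mrpl20 at 1.48 (adjusted p = 2.72e-07), Mrpl40 at 1.54 (adjusted p = 5.04e-07) and Mrps21 at 2.21 (adjusted p = 1.37e-06) followed. These 5 had every DNL919 day 1 library above every Vehicle library, as did 16 of the 74 members and 6.69% of all tested genes. The paralogue Mrps18c was not called here, at 148, 198 and 246 CPM in Vehicle and with a log2 fold change at 0.35 (adjusted p = 0.237).

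The isotype control on the transport vehicle was also set against vehicle solution. Of the 74 members 0 were called in ATV:DNP02 against Vehicle, as 0 of all genes were, with a median of 0.02 over the members. At an unadjusted p under 0.05 there were 498 of all 11189 genes by limma-voom. Of the members there were 3 by limma-voom, 2 by edgeR and 2 by DESeq2. The 3 were Mrps2, Mrps28 and Mrps6, at log2 fold changes of 1.63, 0.64 and 0.82 (adjusted p = 1 each). Mrps2, a small-subunit protein with a bacterial homologue, measured 10.7, 14.6 and 23.05 CPM in ATV:DNP02 against 0.425, 5.56 and 14.2 CPM in Vehicle, and its fold against Vehicle in DNL919 day 1 was the largest of the members, 2.23 (adjusted p = 0.00163), where against ATV:DNP02 it had 0.60 (adjusted p = 0.161).

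The later collections asked how long the difference lasted. The summed level was 3.06 kCPM at the lowest, 4.22 at the median and 4.59 at the highest in DNL919 day 4 libraries and 2.82, 4.30 and 4.67 kCPM in DNL919 day 7 libraries, against 3.13, 3.99 and 4.29 kCPM in ATV:DNP02 of day 1. All 3 groups overlapped. Of the 74 members 0 were called on day 4, where 1.81% of all genes were called in either direction, and 0 on day 7, where 1.51% were. On day 4 the members' median was 0.03 (range -0.68 to 0.49), with 4 at an unadjusted p under 0.05 by limma-voom, 2 by edgeR and 3 by DESeq2. On day 7 it was 0.02 (range -0.68 to 0.58), with 3, 5 and 6. At that unadjusted p there were 1378 of all 11189 genes on day 4 and 1313 on day 7, by limma-voom. Without the libraries high in neutrophil markers, DNL919 day 4 replicate 6 and DNL919 day 7 replicate 7, the medians were 0.06 and -0.01 and again 0 members were called.

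**Figure D4:**
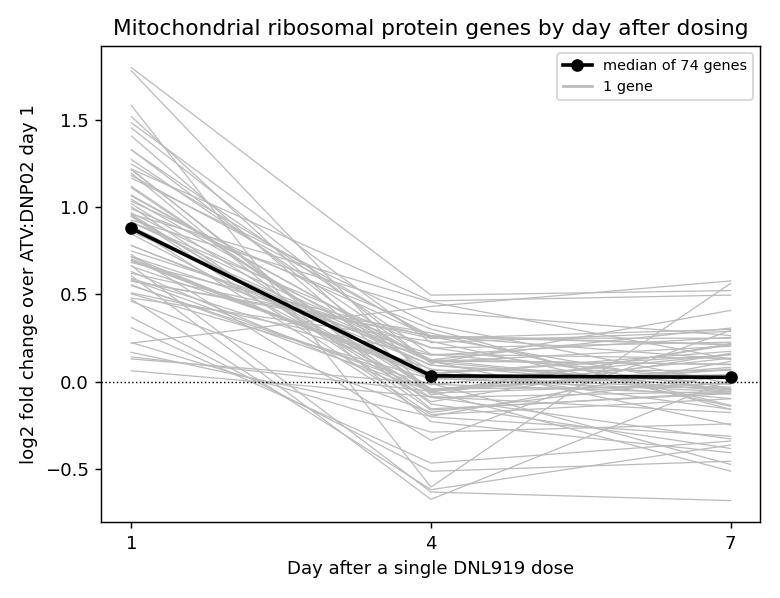
log2 fold change of the 74 tested members over ATV:DNP02 day 1 by day after a single DNL919 dose, with a grey line per gene and the median in black. The median is 0.88 on day 1, 0.03 on day 4 and 0.02 on day 7, and all 3 days share the same control libraries.

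Set directly against day 1, 55 of the 74 members were lower on day 4 and 0 higher, where 18.1% of all genes were lower. The median log2 fold change was -0.78 (range -2.19 to 0.21, all genes -0.00), and only Mrps5 was above 0. Mrps28 measured 38.6, 43.4 and 72.8 CPM on day 4 against 68.7, 172 and 193 CPM on day 1 (log2 fold change -1.58, SE 0.20, adjusted p = 5.38e-08). Mrpl20, a large-subunit protein, measured 32.7, 58.3 and 77.8 CPM on day 4 against 73.0, 158 and 196 CPM on day 1 (log2 fold change -1.34, adjusted p = 1.04e-07). In both genes the highest day 4 library reached above the lowest day 1 library.

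Mrpl17 at -1.30 (adjusted p = 2.90e-07), Mrpl12 at -1.42 (adjusted p = 4.31e-07) and Mrps14 at -1.17 (adjusted p = 4.39e-07) came next. Mrps14, of the small subunit, measured 49.995, 81.9 and 102 CPM on day 4 against 112, 173 and 249 CPM on day 1, without overlap. In 9 of the 74 members, and in 3.22% of all tested genes, every day 1 library was above every day 4 library. The most negative estimate was that of Mrps27, at -2.19 (adjusted p = 9.46e-05), with 0.854, 5.53 and 15.8 CPM on day 4. Mrpl50, not called on day 1 against ATV:DNP02, was lower on day 4 than on day 1, at 24.0, 39.6 and 63.4 CPM against 43.5, 81.8 and 107 CPM (log2 fold change -0.88, adjusted p = 0.00253). Both higher on day 1 against ATV:DNP02 and lower on day 4 against day 1 were 50 members, and both comparisons use the DNL919 day 1 libraries. The same joint count is not given here for all genes. In males alone 12 members and 3.8% of all genes were called lower on day 4.

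Between day 7 and day 4 the members were not called in any case, with 0 of 74 and 0 of all genes and a median of 0.01. At an unadjusted p under 0.05 there were 5 members by limma-voom, 3 by edgeR and 4 by DESeq2. Of all 11189 genes there were 483 by limma-voom. The largest estimate was again that of Mrps27, at 1.17 (adjusted p = 0.999), with 6.59, 13.2 and 23.5 CPM on day 7 against 0.854, 5.53 and 15.8 CPM on day 4.

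The day 1 effect against ATV:DNP02 was also compared between males and females. The median male minus female difference of the members was -0.25 on the log2 scale, against 0.07 over all genes, and 20 of 74 were above 0. Of the members 0 were called, as of all genes, with 6 at an unadjusted p under 0.05 by limma-voom, 3 by edgeR and 5 by DESeq2, all with an adjusted p of 0.867. Among them were Mrpl14 (-1.04), Mrpl33 (-0.87) and Mrpl17 (-0.79). Of all 11189 genes 609 had an unadjusted p under 0.05 by limma-voom. Sex and batch pair cannot be told apart here. The DNL919 day 1 libraries with the lowest summed levels, replicates 5 (4.39 kCPM) and 8 (5.99 kCPM), were both male.

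Genes that work with the mitoribosome were taken as lists and give the setting. Of 6 mitoribosomal proteins with other names, 5 were called higher in DNL919 day 1 than in ATV:DNP02 and 0 lower, with a median log2 fold change of 0.79. They include Aurkaip1 (1.21, adjusted p = 6.82e-06), Chchd1 (1.16, adjusted p = 7.37e-05) and the death-associated protein Dap3 (0.68, adjusted p = 0.0140), while Ptcd3 had -0.57 (adjusted p = 0.347). Protein import, through which mitoribosomal proteins enter, had 19 of 29 called higher and 0 lower, with a median of 0.83. Tomm7, of the outer-membrane pore, had 1.504 (SE 0.17, adjusted p = 2.67e-09) and Timm17a, of the inner-membrane channel, 1.17 (adjusted p = 4.78e-07).

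The enzymes and factors of mitochondrial translation are read against the 20.8% of all genes called higher. Of 19 mitochondrial aminoacyl-tRNA synthetases and their partners, which charge tRNAs, 4 were called higher and 0 lower (median 0.49), among them Yars2 (1.75, adjusted p = 8.69e-04) and Rars2 (1.11, adjusted p = 0.00266). Of 13 translation factors 4 were higher and 1 lower, with a median of -0.03 (0.63 against Vehicle). The elongation factors Tufm (1.44, adjusted p = 8.82e-04) and Gfm1 (1.72, adjusted p = 0.00246) were higher and the initiation factor Mtif3 lower (-0.97, adjusted p = 0.00441). Of 25 assembly factors of the mitoribosome 1 was higher, Fastkd2 (1.12, adjusted p = 0.00114), and 2 were lower, Mettl17 (-0.58, adjusted p = 0.0362) and Dhx30 (-0.65, adjusted p = 0.0440), with a median of 0.40.

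**Figure D5:**
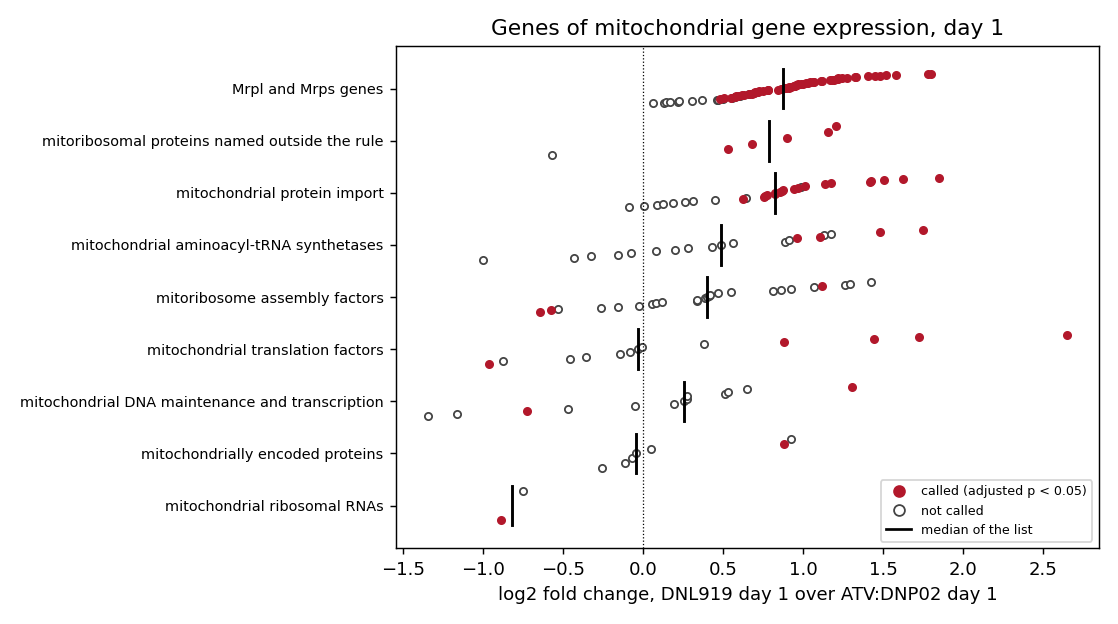
log2 fold change in DNL919 day 1 over ATV:DNP02 day 1 for each tested gene of the mitochondrial ribosomal protein genes and of the companion lists, with filled red points for called genes and the median of each list as a bar. The medians are 0.88 for the 74 members, 0.83 for import and -0.03 for translation factors, whose median against Vehicle is 0.63.

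Transcripts of mitochondrial DNA, among them the ribosomal RNAs of the mitoribosome and the messenger RNAs it translates, were counted as well. The large ribosomal RNA, mt-Rnr2, averaged 8226 ± 3435 CPM in DNL919 day 1 and 14761 ± 5488 CPM in ATV:DNP02 (SD, n = 8 each, log2 fold change -0.89, SE 0.28, limma-voom adjusted p = 0.01). The small one, mt-Rnr1, had -0.75 (adjusted p = 0.0636). Their direction turned to 0.46 and 0.79 once the noncoding share, which does not include them, was a covariate. Polyadenylated RNA was sequenced, and how far these values follow the amount of ribosomal RNA was not tested. Of 7 mitochondrially encoded protein genes that could be tested, mt-Nd1, a subunit of complex I, was higher, at 2563 ± 460 CPM in DNL919 day 1 and 1383 ± 223 CPM in ATV:DNP02 (SD, n = 8 each, log2 fold change 0.88, SE 0.12, adjusted p = 7.41e-08). The median of the 7 was -0.05, and mt-Nd6, on the other strand of mitochondrial DNA, had 0.93 (adjusted p = 0.256). The untested ones were mt-Nd4l, mt-Co2, mt-Co3, mt-Atp6 and mt-Atp8, with 0 counts over all libraries, and mt-Nd3, with 76. The level of these transcripts was therefore not measured here.

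Of 13 genes that copy and transcribe mitochondrial DNA 1 was higher, the RNA-stabilising Slirp (1.31, adjusted p = 2.11e-05), and 1 lower, the exonuclease Mgme1 (-0.73, adjusted p = 0.0414). Among regulators of nuclear genes for mitochondria, Myc was higher (1.02, SE 0.28, adjusted p = 0.00399), though not in females alone (0.59, adjusted p = 0.188) nor when the noncoding share was a covariate (0.29, adjusted p = 0.705). Gabpa, an ETS factor, was lower (-0.79, SE 0.31, adjusted p = 0.0421) by limma-voom, but the call rests on the setting. It was lost by edgeR (adjusted p = 0.0541), without the batch term (-0.72, adjusted p = 0.126), in males alone (-0.23, adjusted p = 0.846) and once the noncoding share was a covariate (-0.73, adjusted p = 0.278). It was also lost in 9 of 16 fits that left out 1 library of either group, by limma-voom with an adjusted p of up to 0.126 and log2 fold changes of -0.98 to -0.64 over the 16. Nrf1 had -0.16 (adjusted p = 0.756), Yy1 -0.41 (adjusted p = 0.245) and Pprc1 0.44 (adjusted p = 0.608). The coactivators Ppargc1a and Ppargc1b had 27 and 86 counts over all libraries and were not tested.

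The companion lists were followed over the same days. None of their genes was called on day 4 or day 7 against ATV:DNP02 of day 1. Against day 1, 18.1% of all genes were lower on day 4. Lower were 19 of 29 import genes, 5 of 6 mitoribosomal proteins with other names and 4 of 19 synthetases and partners. Of 13 translation factors 3 were lower and 2 higher, and both mitochondrial ribosomal RNAs were higher. Against Vehicle, DNL919 day 1 had 16 import genes, 4 of the 6 mitoribosomal proteins and 4 synthetases and partners higher. Translation factors had 4 higher and 2 lower there, and 19.0% of all genes were higher.

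The promoter motifs were set beside the day 1 calls against ATV:DNP02, where 20.8% of all genes tested were called higher. Of the members with an ETS, NRF1 or YY1 core 19 of 23 tested were called higher, with a median log2 fold change of 0.86, and of those without one 31 of 42, with a median of 0.90. By motif, 12 of 15 with the ETS core, 6 of 7 with the NRF1 core and 3 of 4 with the YY1 core were called. Whether members with and without these letters differ was not tested, and calls of other genes with these motifs were not counted.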

How the data were processed

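Bulk RNA-seq of sorted CD11b+ microglia was analysed from the count table deposited by the authors, with 1 column for each of 38 libraries. Libraries were made with the SMARTSeq 3′ DE and Nextera XT kits, which as used here do not mark strand, with PCR amplification in both steps, and no molecular identifiers are stated for them. The submitters' processing notes name STAR, featureCounts (Subread 1.6.2), edgeR and build GRCm38.p6. Which annotation release was counted is not given in the sources used here. The deposited counts carry no more than 2 significant digits, so counts of 100 or more were rounded by up to 4.76%, which touches 58.5% of the members' counts. The scaling factor, a ratio per library listed by the authors, served in an alternative only, and their normalized CPM sheet was not used here. Identical libraries within a group were looked for, and 0 pairs were found.

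The two-sided limma-voom test was fitted to all 38 libraries, with TMM scaling and terms for group and batch, in R 4.3.3 (limma 3.58.1, edgeR 4.0.16). The edgeR low-count filter used a minimum count of 10, a total of 15 and a proportion of 0.7, and p-values were adjusted by Benjamini-Hochberg over all 11189 genes, with a threshold of 0.05. The test was run on simulated counts with 200 changed genes first. CPM values were computed from the counts on TMM-scaled library sizes, and within-batch differences on log2 CPM with a prior count of 2. Precision is limited by 1.65 to 6.42 M counts per library, and rounding adds to it.

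Members and gene lists were chosen with earlier results of these data known. Named with values were the 10 members with the largest fold among those called on day 1 against ATV:DNP02 and averaging at least 20 CPM, up to 5 with the lowest adjusted p in each other comparison, the 5 uncalled members with the highest mean, those below the filter, and Mrps12, Mrpl12, Mrps18a, Mrps18b, Mrps18c, Mrps30 and Mrps36 by role. Mrpl58, also on that list, has no gene under this name, and Ict1 is its older symbol. Of each companion list the 2 genes with the lowest adjusted p, the mitochondrial ribosomal RNAs and a fixed set of regulators were named, and other genes named were chosen after their values were seen. Alternatives were edgeR's quasi-likelihood test, DESeq2 1.42.0, no low-count filter, library totals or the listed factors in place of TMM, no batch term, each sex alone, only the groups compared, and the noncoding share as a covariate. Leaving out single libraries was added after seeing the data. Promoter and motif sequences came from RefSeq (GRCm38.p6).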

Additional observations from a re-analysis of the deposited data

Results flagged for a closer look

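Single libraries that stood far from the rest of their group were looked for in 115 groups of values, those of 22 named members and of the summed level, and 3 were found, where chance gives about 1 in 20 groups. Mrpl2 measured 26.8 CPM in DNL919 day 1 replicate 8, against 37.2 CPM in the next lowest library of that group. The summed level of the members was 3.13 kCPM in ATV:DNP02 day 1 replicate 3, against 3.75 kCPM in the next lowest. Without this library 48 members and 18.8% of all genes were called higher in DNL919 day 1 than in ATV:DNP02. The members' median log2 fold change was then 0.74. That library had the highest noncoding share of its group, 8.68%. Mrpl14 measured 34.7 CPM in Vehicle day 1 replicate 5, against 61.4 CPM in the next lowest.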

How the results depend on the processing

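For the counts of called members and their medians, 225 values under the other settings stayed within the limits set and 9 moved. With the noncoding share as a covariate, 26 members were called higher in DNL919 day 1 than in ATV:DNP02 (median log2 fold change 0.61) and 21 than in Vehicle (median 0.58). In males alone, 12 were higher against ATV:DNP02, 11 against Vehicle, and 12 lower on day 4 than on day 1. Without the low-count filter 1 member was called lower against each control, Mrpl53, which had 0 counts in every library of these groups. In that setting 31.8% of 25246 genes were called lower against ATV:DNP02 and 33.5% against Vehicle. On day 1 against ATV:DNP02 edgeR called 49 members and 16.9% of all genes higher. DESeq2 called 48 members and 9.26% of 25246 genes higher. Those 25246 genes were not filtered for low counts, so this share has another base than the 20.8% of 11189. The calls themselves were 2337 genes by DESeq2 and 2329 by limma-voom. With library totals in place of TMM the median of all genes was -0.10, against 0.01, and that of the members 0.75. In that setting 49 members and 18.3% of all genes were called higher. Leaving out single libraries gave 48 to 59 members called, with 18.8% to 20.9% of all genes, and a median of 0.74 to 0.96. Of the named members, Mrpl43 changed sign under DESeq2 (-0.011), library totals (-0.065), males alone (-0.090), the 2 groups alone (-0.0033) and the noncoding covariate (-0.34), and ranged from -0.14 to 0.18 when single libraries were left out. Mrpl48 had -0.063 in females alone, and Mrps5 ranged from -0.050 to 0.36 when single libraries were left out. Mrps30 lost its call in 7 of 10 settings. Another 13 values of named members lost their call, 7 of those among Mrps21, Mrpl2, Mrpl17, Mrpl33, Mrpl14, Mrpl20 and Mrps14, all in males alone or with the noncoding covariate, and the other 6 among Mrps12, Mrps18a and Mrps18c. The causes were not tested. No paired analysis was possible because the labels give no replicate numbers that tie libraries across groups.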
